A study of Mus musculus with 2 samples.

Results

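Prss35 and Tbx20 root mesenchymal cells are a set of stromal cells of the aortic root and of the aorta ascending from it, in mice with a Marfan syndrome mutation. A cell belonged to the set when its values of Prss35, Tbx20, Wif1 and Meox1 summed to at least 4. That sum also had to exceed the sum of Clec3b, Pi16, Dpep1 and Scara5, genes of adventitial fibroblasts, and the sum of Gdf10, Hsd11b1 and Lamc3. Cells were left out when Chad, Col2a1 and Epyc summed to 5 or more, when Myh11 reached 10, when C1qa, C1qb and C1qc summed to 5 or more, or when Pecam1 and Cdh5 summed to 2 or more. These limits remove cartilage-like cells, contractile smooth muscle cells, macrophages and endothelial cells. The members were thus chosen by measured values of these genes in each cell. There were 843 among the 4397 GLPG0187 library cells and 706 among the 2961 vehicle library cells, 1549 of 7358 cells in all, and below they are called GLPG0187 cells and vehicle cells.

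The GLPG0187 library came from Fbn1C1041G/+ mice, which carry a mutation in 1 copy of the gene for fibrillin-1 and serve as a model of Marfan syndrome, given GLPG0187 every day from 6 to 16 weeks of age. GLPG0187 is an inhibitor of integrin alpha-v according to the series' design text. The vehicle library came from Fbn1C1041G/+ mice given vehicle over the same weeks, so both groups carry the mutation and no wild-type group is analysed here. Each group is 1 library made from 1 pool of male and female aortas taken at 16 weeks of age, digested and sorted to remove debris, and how many animals went into a pool is not stated in the labels.

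As each group has a single library, no test between them was possible, and the drug cannot be told apart from the mice pooled, their dissection or the preparation of the library. Gene levels below are mean depth-corrected values per cell, and a log2 ratio is GLPG0187 over vehicle after the values of each gene were summed over the cells of the set and divided by the total of those cells. Totals per cell had been evened out before deposit, so the amount of RNA in a cell is not visible here. The median number of genes detected was 3912 in GLPG0187 cells (range 1868 to 5453) and 4058.5 in vehicle cells (2240 to 5316), and the median mitochondrial share of values was 2.38% and 2.54%. The libraries shared 5 cell barcodes, of which 1 lay in the set, and none of the 5 had the same values in both. Scrublet called 1 GLPG0187 cell and 0 vehicle cells doublets. As a view of separate animals within a pool, values were also computed in Xist-only cells (Xist above 0 and no Y-linked gene, female) and in Y-only cells (a Y-linked gene above 0 and no Xist, male). Of GLPG0187 cells 21.6% were Xist-only and 68.6% Y-only, and of vehicle cells 36.3% and 54.5%.

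The aortic root joins the valve leaflets to the vessel wall, and its mesenchyme descends from the endocardial cushions, the second heart field and the neural crest. Tbx20 is a T-box transcription factor needed for the growth and maturation of the endocardial cushions and valves. Valve interstitial cells, the mesenchymal cells of the leaflets, lay down collagen, versican and elastic fibres in separate layers, and the root is the part of the aorta that widens most in Marfan syndrome.

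The label genes were compared first, since they show what the rule had gathered. All gene positions are on GRCm38 from the GENCODE annotation, and all the genes so placed are protein-coding. Tbx20 (chr9:24718138-24774303, minus strand) was above 0 in 98.0% of GLPG0187 cells and 99.4% of vehicle cells, with a mean of 14.8 and a median of 12 in GLPG0187 cells, and a mean of 17.5 and a median of 16 in vehicle cells. Wif1 (chr10:121033960-121100650, plus strand), a secreted Wnt antagonist, averaged 14.8 in GLPG0187 cells and 13.2 in vehicle cells and was spread widely, with a median of 5 in both and a 95th percentile of 62 and 54. Meox1 (chr11:101877510-101894374, minus strand), a homeobox factor of the embryonic somites, averaged 6.74 in GLPG0187 cells and 6.18 in vehicle cells. Prss35 (chr9:86743649-86758443, plus strand), a secreted serine protease-like protein, was the sparsest gene of the rule, above 0 in 44.5% of GLPG0187 cells (mean 1.81) and 52.5% of vehicle cells (mean 2.55). Because these 4 genes chose the cells, their levels describe the set and are no result.

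The other 4 label markers split the set. Itih5 (chr2:10153571-10256529, plus strand), which codes for a hyaluronan-binding heavy chain, was above 0 in 82.7% of GLPG0187 cells and 82.4% of vehicle cells. Cyp2e1 (chr7:140763739-140774987, plus strand), a cytochrome P450, was above 0 in 44.6% and 43.8%. Npy (chr6:49822710-49829507, plus strand), the neuropeptide Y precursor, was above 0 in 34.6% and 38.4%, with a 95th percentile of 27.8 in GLPG0187 cells and 24.5 in vehicle cells while the median was 0 in both. Coch (chr12:51593341-51605771, plus strand), a matrix protein of the inner ear, was above 0 in 9.49% and 14.0%, and the top 8 GLPG0187 cells held 46.8% of its summed value and the top 7 vehicle cells 41.6%. In all, 7 of the 8 label markers were above 0 in at least 25% of cells in both libraries, and Coch was not. Npy and Coch marked a minority of these cells. Wif1 and Npy were not particular to the set, since Chad and Col2a1 cells averaged 16.7 for Wif1 and 2.47 for Npy with GLPG0187, and 14.9 and 2.54 with vehicle.

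Of the mesenchymal sets compared, the Prss35 and Tbx20 cells had the highest sum of valve interstitial markers. A list of 10 valve interstitial markers, which shares Tbx20 with the rule, summed to 66.5 per cell in GLPG0187 cells and 72.0 in vehicle cells, against 7.13 to 25.3 in the 4 sets compared throughout. These sets were gated on Pi16 and Clec3b (484 GLPG0187 and 345 vehicle cells), on Gdf10 and Hsd11b1 (481 and 519 cells), on Chad and Col2a1 (226 and 209 cells) and on Myh11 (1601 and 709 Myh11-high cells). Versican (Vcan, chr13:89655312-89742509, minus strand), the large hyaluronan-binding proteoglycan of valve spongiosa, averaged 19.2 in GLPG0187 cells and 19.8 in vehicle cells. Periostin (Postn), a matricellular protein of valves and ligaments, averaged 22.3 in GLPG0187 cells and 24.7 in vehicle cells, and the chondrogenic factor Sox9 5.95 and 5.21. In GLPG0187 cells 7 of the 10 valve markers, and in vehicle cells 8, were above 0 in at least 25% of cells. This count did not set the cells apart, since it was 8 in Chad and Col2a1 cells of both libraries.

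Other lists set limits to the label. The low sums of smooth muscle, chondrocyte and endothelial markers below are partly fixed by the rule, which caps Myh11, Chad, Col2a1, Epyc, Pecam1 and Cdh5, genes on which the sets they are compared with were gated high. All 12 general fibroblast markers were above 0 in at least 25% of cells of both libraries. The tendon and fibrosa list reached 4 of 10, with Thbs1, a matrix glycoprotein that binds latent TGF-beta, at 24.0 in GLPG0187 cells and 23.3 in vehicle cells, and Scx, the tendon transcription factor scleraxis, at 1.80 and 2.43. Contractile markers were low: the smooth muscle list summed to 22.1 in GLPG0187 cells and 20.3 in vehicle cells, against 698 and 651 in Myh11-high cells. Of 12 markers of modulated smooth muscle cells, 10 were above 0 in at least 25% of cells of both libraries. That count was the same in Myh11-high cells and in Gdf10 and Hsd11b1 cells. These markers summed to 388 in GLPG0187 cells and 365 in vehicle cells. The sums were 457 and 468 in Chad and Col2a1 cells and 26.8 and 30.9 in Myh11-high cells. They were 308 and 320 in Pi16 and Clec3b cells and 266 and 259 in Gdf10 and Hsd11b1 cells. Most of the set's sum was Dcn (303.9 in GLPG0187 cells, 283.7 in vehicle cells), which is also on the general fibroblast list. Chondrocyte markers summed to 15.1 in GLPG0187 cells and 14.7 in vehicle cells, against 117 and 171 in Chad and Col2a1 cells of the same libraries, and Matn3 was at 0. Endothelial markers summed to 2.44 in GLPG0187 cells and 2.53 in vehicle cells, nearly all of it Eng, against 51.4 in Pecam1 and Cdh5 cells of both libraries, with Cdh5 at 0 in the set. Lymphocyte and mesothelial lists summed to 0.0297 or less in both libraries. Since markers of general fibroblasts, modulated smooth muscle, tendon and valve were all present, the cells are called here by their genes and given no cell type name.

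**Figure D1:**
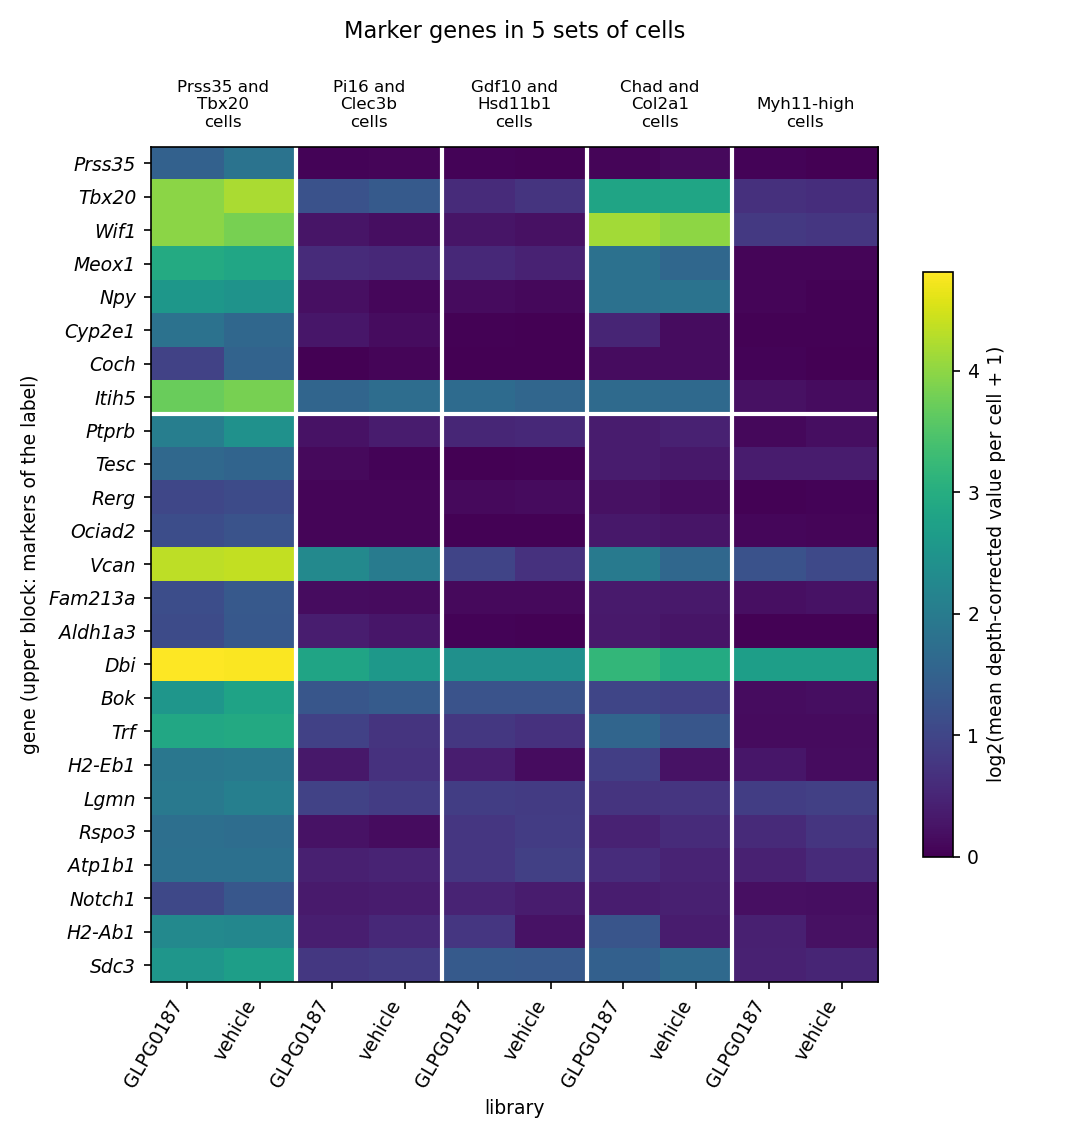
Mean depth-corrected value per cell of the label markers and of genes higher in the Prss35 and Tbx20 cells, for those cells and the compared sets in each library, with GLPG0187 left of vehicle. Brighter shades are higher values of log2(mean + 1), to be read along a row, and Wif1 is as bright in Chad and Col2a1 cells (mean 16.7 with GLPG0187, 14.9 with vehicle) as in the set itself.

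The rule's edge ran through a thin stretch of cells. With every other condition met, 7 GLPG0187 cells and 7 vehicle cells had a sum of exactly 4, with a mean Itih5 of 2.14 and 1.86 and a mean Vcan of 2.71 and 4.57. Just outside, at a sum of 3, lay 10 GLPG0187 cells and 8 vehicle cells, with a mean Itih5 of 0.4 and 1.5 and a mean Vcan of 5.7 and 2. The median sum was 30 in GLPG0187 cells and 34 in vehicle cells. Before the exclusions 1402 GLPG0187 and 1106 vehicle cells reached the sum, and among these the cartilage limit was failed by 176 and 168 cells, the Myh11 limit by 168 and 62, the adventitial sum by 152 and 108, the Gdf10 sum by 100 and 98, the endothelial limit by 73 and 52 and the C1q limit by 9 and 2.

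Within the set the cells ran along a gradient of the rule's own genes, and some genes outside the rule ran with it. All 4 rule genes were above 0 in 31.4% of GLPG0187 cells (265) and 34.8% of vehicle cells (246), 3 of them in 38.1% (321) and 40.7% (287), 2 in 24.0% (202) and 19.5% (138), and 1 in 6.52% (55) and 4.96% (35). From 1 to 4 rule genes, Vcan averaged 7.80, 11.1, 18.1 and 29.1 in GLPG0187 cells and 7.31, 9.24, 19.0 and 28.4 in vehicle cells. Itih5 averaged 4.84, 5.22, 11.4 and 19.8 in GLPG0187 cells and 2.54, 5.19, 13.7 and 18.6 in vehicle cells. Npy averaged 0.0909, 2.11, 4.99 and 7.79 in GLPG0187 cells and 0.543, 1.70, 4.56 and 6.74 in vehicle cells. The order was the same in both libraries for each of these 3 genes. The mean of Cyp2e1 did not follow, at 1.76, 3.10, 2.35 and 2.46 in GLPG0187 cells and 1.91, 1.95, 2.11 and 2.05 in vehicle cells. Cyp2e1 was nonetheless above 0 more often with 3 or 4 rule genes. The shares were 30.91%, 37.62%, 44.55% and 52.83% of GLPG0187 cells and 31.43%, 30.43%, 45.3% and 51.22% of vehicle cells. The mean of Fmod was highest with 3 rule genes, at 6.01 in GLPG0187 cells and 5.75 in vehicle cells. The median number of genes detected was also highest in cells with all 4, at 3466, 3728.5, 3859 and 4081 in GLPG0187 cells and 3808, 3726, 4015 and 4197 in vehicle cells, and its part in the gradient was not tested.

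Pairs of genes, chosen after their values were seen, ran together or apart among the cells. Whether the pairs lie on separate axes was not tested. Rank correlations over cells describe each library and carry no test, and the cells of a library share its background RNA. Prss35 ran with Vcan (Spearman's rho 0.58 over 843 GLPG0187 cells and 0.53 over 706 vehicle cells): Vcan averaged 28.9 in GLPG0187 cells with Prss35 and 11.4 in those without, and 26.6 and 12.3 in vehicle cells. Scx ran with Thbs1 (rho 0.40 in GLPG0187 cells and 0.48 in vehicle cells) and with fibromodulin, Fmod, a collagen-binding proteoglycan (0.40 and 0.44). The cells with Scx also had more genes detected, a median of 4017.5 against 3698 in GLPG0187 cells and 4156.5 against 3791.5 in vehicle cells. Npy ran with Itih5 (0.39 in GLPG0187 cells and 0.38 in vehicle cells). Cells with Npy carried Cyp2e1 less often than cells without it, at 31.9% against 51.4% of GLPG0187 cells and 35.4% against 49.0% of vehicle cells, although the median number of genes detected was 3929 against 3904 in GLPG0187 cells and 4183 against 3964 in vehicle cells. Most cells with Npy thus had no Cyp2e1 value, although both genes are label markers.

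Genes of the rule included, 38 of 2233 genes with a mean of at least 1 in both libraries (1.70%) were at least 2-fold higher in the set than in the highest of the 4 compared sets, in both libraries. The rule picks cells by their own values, so this is a description of what the cells carry. Outside the label markers and by the smaller of both libraries' folds, the widest gap was that of Ptprb (chr10:116275523-116389535, plus strand), the vascular endothelial receptor phosphatase VE-PTP. It averaged 3.18 in GLPG0187 cells and 4.38 in vehicle cells, 7.47-fold and 9.45-fold over the highest compared set. Pecam1 and Cdh5 cells, which were not among those 4 sets, held Ptprb at 6.83 in the GLPG0187 and 7.43 in the vehicle library. The endothelial receptors Kdr and Tie1 were above 0 in 0.119% and 0% of GLPG0187 cells and in 0.567% and 0.142% of vehicle cells. Ptprb was thus present in cells nearly without Kdr and Tie1, whose near absence is partly fixed by the rule's limit on Pecam1 and Cdh5.

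The other genes of this group fall into a few roles. Tesc, a calcium-binding protein, was at 2.08 in GLPG0187 cells and 1.93 in vehicle cells, 7.10-fold and 6.46-fold over the highest compared set, and the small GTPase gene Rerg at 1.03 and 1.15, 6.14-fold and 10.0-fold. Vcan was 5.06-fold and 6.57-fold over it. A pair of signalling genes known from valves was present. Notch1, a receptor whose loss-of-function variants are linked to bicuspid valves in people, was above 0 in 57.8% of GLPG0187 cells and 70.0% of vehicle cells (means 1.07 and 1.46, 2.71-fold and 4.12-fold), and Rspo3, an R-spondin that strengthens Wnt signalling, averaged 2.39 and 2.30 (3.47-fold and 2.80-fold). Aldh1a3, an enzyme that makes retinoic acid, averaged 1.13 in GLPG0187 cells and 1.51 in vehicle cells (3.76-fold and 6.50-fold). Dbi, the acyl-CoA binding protein, was at 27.1 in GLPG0187 cells and 26.7 in vehicle cells (3.35-fold and 4.01-fold), transferrin (Trf) at 6.41 and 6.55 (3.23-fold and 4.49-fold), and the lysosomal protease legumain (Lgmn) at 2.84 and 3.23 (3.05-fold and 3.69-fold). Bok, a BCL2 family member, and the heparan sulphate proteoglycan gene Sdc3 were 3.30-fold and 2.63-fold over the highest compared set in GLPG0187 cells and 3.69-fold and 2.58-fold in vehicle cells.

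H2-Ab1 and H2-Eb1 of that group belong to the MHC class II, the molecules that present peptides to CD4 T cells and are a mark of white blood cells. H2-Ab1 (chr17:34257689-34269419, plus strand) was above 0 in 53.5% of GLPG0187 cells (95% Clopper-Pearson interval 50.1 to 56.9) and 49.6% of vehicle cells (45.8 to 53.3), with means of 3.79 and 3.67. H2-Eb1 averaged 2.76 in GLPG0187 cells and 2.85 in vehicle cells, H2-Aa 2.66 and 2.56, and the invariant chain Cd74 4.45 and 4.78. In Myh11-high cells, a cell type that should lack these genes, H2-Ab1 was above 0 in 21.6% of GLPG0187 and 8.89% of vehicle library cells, at a median of 4043 and 4173 genes detected. The means there were 0.349 and 0.161, and the other 3 compared sets lay between 0.32 and 1.41 with GLPG0187 and between 0.177 and 0.467 with vehicle. The share in the set lay above the share in Myh11-high cells in both libraries, further above it in the vehicle library, at fewer genes detected than in Myh11-high cells.

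White blood cell genes did not come with it. Ptprc, the pan-leukocyte marker CD45, averaged 0.0202 in GLPG0187 cells and 0.0170 in vehicle cells, against 8.18 and 6.21 in C1q cells, the macrophages gated on C1qa, C1qb and C1qc (286 and 162 cells). Csf1r, the receptor of macrophage growth, averaged 0.0285 in GLPG0187 cells and 0.0241 in vehicle cells, against 10.9 and 13.6 in C1q cells. Lyz2, macrophage lysozyme, averaged 0.389 in GLPG0187 cells and 0.177 in vehicle cells, against 145 and 134. H2-Ab1 itself averaged 120 in C1q cells of the GLPG0187 library and 66.0 in those of the vehicle library. Pecam1 and Cdh5 cells averaged 3.54 of H2-Ab1 with GLPG0187 and 1.21 with vehicle. Among the 10 macrophage markers Cd74 alone was above 0 in at least 25% of cells of the set, none was at 0, and the list summed to 5.17 in GLPG0187 cells and 5.19 in vehicle cells. That list holds C1qa, C1qb and C1qc, which the rule caps, so its low values are partly fixed by the rule. The C1q sum was 0 in 82.4% of GLPG0187 cells (695) and 88.5% of vehicle cells (625), and in these H2-Ab1 averaged 3.5 and 3.7. H2-Ab1 was thus also present in cells with no C1q value.

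**Figure D2:**
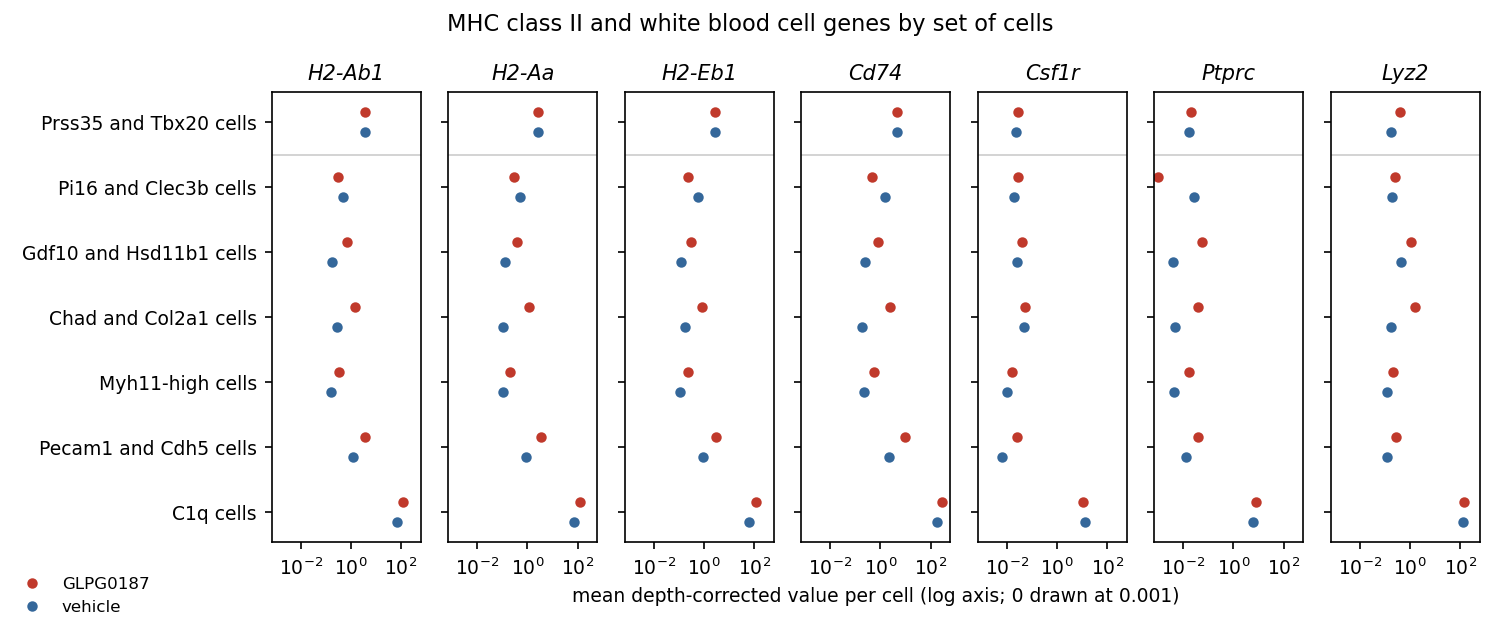
Mean depth-corrected value per cell (log axis, 0 drawn at 0.001) of 4 MHC class II genes and of the white blood cell genes Csf1r, Ptprc and Lyz2 in the Prss35 and Tbx20 cells and 6 other sets, red for GLPG0187 above blue for vehicle. H2-Ab1 in the set lies at 3.79 (GLPG0187) and 3.67 (vehicle), between the other mesenchymal sets and the C1q cells, while Csf1r lies at 0.0285 (GLPG0187) and 0.0241 (vehicle), level with the other mesenchymal sets.

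Cells with and without H2-Ab1 had like numbers of genes detected, with a median of 3904 and 3928.5 in GLPG0187 cells and 4069 and 4056.5 in vehicle cells. H2-Aa ran with H2-Ab1 (rho 0.70 over GLPG0187 cells and 0.73 over vehicle cells), averaging 4.77 in GLPG0187 cells with H2-Ab1 and 0.235 in those without, and 5.05 and 0.101 in vehicle cells. Pleiotrophin (Ptn), a heparin-binding growth factor, also ran with H2-Ab1 (0.36 and 0.38), at 12.4 against 5.48 in GLPG0187 cells and 13.4 against 7.11 in vehicle cells, as did the complement gene C4b (0.32 and 0.42). Fmod ran the other way (-0.24 and -0.21), at 3.20 against 6.82 in GLPG0187 cells and 3.18 against 6.12 in vehicle cells. H2-Ab1 was also above 0 more often with 3 or 4 rule genes than with fewer, in 43.6%, 43.1%, 53.9% and 63.0% of GLPG0187 cells and 14.3%, 34.1%, 52.6% and 59.8% of vehicle cells with 1 to 4 of them, a count that the number of genes detected moves with.

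The share of the library that met the rule was lower with GLPG0187, but the difference moved with the denominator and the sex. Members were 19.2% of all cells with GLPG0187 (18 to 20.4) and 23.8% with vehicle (22.3 to 25.4), a difference of -4.67 percentage points (-6.62 to -2.73). Among Xist-only cells the shares were 15.8% (182 of 1149) and 26.9% (256 of 951), a difference of -11.1 points (-14.7 to -7.50). Among Y-only cells they were 21.3% (578 of 2709) and 23.1% (385 of 1668), with a difference of -1.75 points whose interval (-4.34 to 0.813) includes 0.

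Myh11-high cells were the more frequent with GLPG0187, at 36.4% with GLPG0187 and 23.9% with vehicle. Over the cells that were not Myh11-high, the set made up 30.1% (of 2796) and 31.4% (of 2252), a difference of -1.20 points (-3.79 to 1.39). On that base the difference was -9.29 points (-14.1 to -4.44) among Xist-only cells and 3.05 points (-0.442 to 6.51) among Y-only cells. Gdf10 and Hsd11b1 cells made up 10.9% and 17.5% of all cells, and Pi16 and Clec3b cells 11.0% and 11.7%. The intervals cover counting error only, and digestion and sorting can set all of these shares.

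**Figure D3:**
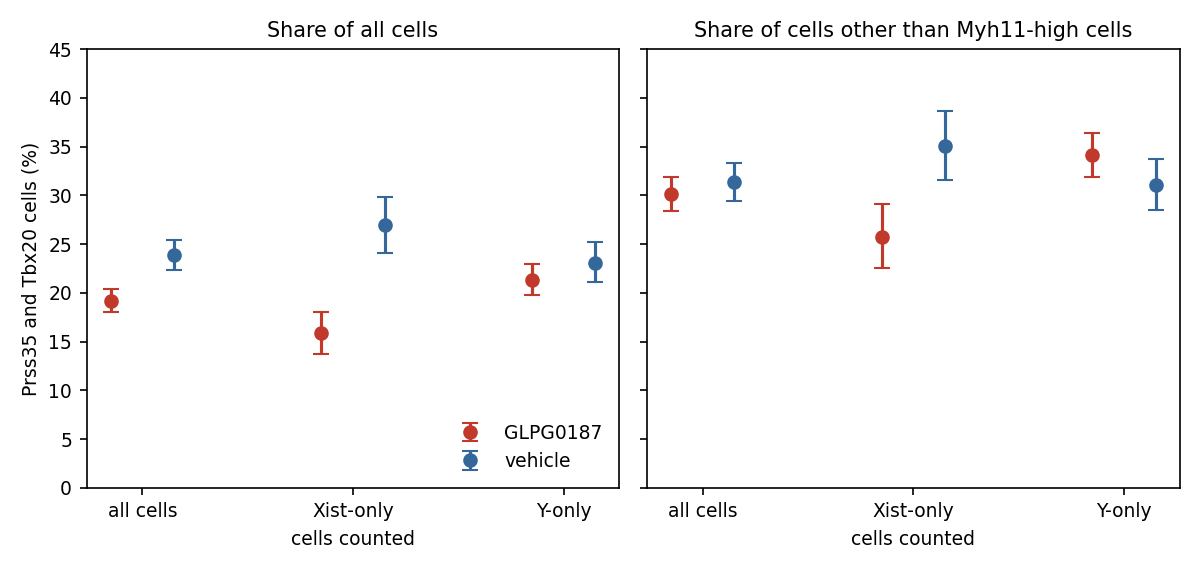
Share of cells that met the rule, in percent with exact 95% intervals (counting error only), for GLPG0187 in red left of vehicle in blue, over all cells, Xist-only cells and Y-only cells, with all cells and with cells that were not Myh11-high as the base. The libraries are 4.67 points apart over all cells and 1.20 points apart once Myh11-high cells are left out of the base, and the gap is widest among Xist-only cells.

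The last comparison asks how the cells of the set differed between the libraries. Most genes lay close together. Of 10311 genes with a summed value of at least 100, 135 (1.31%) lay 1.5-fold or more above and 158 (1.53%) 1.5-fold or more below their vehicle value in GLPG0187 cells, and the median log2 ratio of all of them was -0.04. Among 2406 genes with a mean of at least 1 in 1 library, 16 (0.665%) did so above and 10 (0.416%) below, Xist among the lower ones. Of these, 13 higher and 8 lower genes also differed the same way in each sex alone, past a smaller fold set for the sexes. No p-value or error across animals can be given for any of them.

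Genes known to be induced by interferon gamma were among those higher in GLPG0187 cells. Iigp1, an immunity-related GTPase that attacks vacuoles of intracellular parasites, averaged 3.19 in GLPG0187 cells and 1.11 in vehicle cells (log2 ratio 1.53; Xist-only 2.03, Y-only 1.36) and was above 0 in 54.1% and 39.9%. Gbp2 (chr3:142620602-142638008, plus strand), a guanylate-binding protein of the same defence, was above 0 in 42.7% of GLPG0187 cells and 31.3% of vehicle cells (log2 ratio, Xist-only 1.71, Y-only 0.99). Its log2 ratio after values were capped at the 99th percentile was 0.79, and the top 8 GLPG0187 cells held 31.1% of its summed value. The MHC class I heavy chains H2-K1 (chr17:33996017-34000347, minus strand), at 9.34 in GLPG0187 cells and 5.13 in vehicle cells (log2 ratio 0.87), and H2-D1, at 13.8 and 8.43 (log2 ratio 0.72), lay on the same side. H2-K1 had a median of 6 in GLPG0187 cells and 3 in vehicle cells, and H2-D1 of 10 and 6, so most cells shared in the gap.

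The interferon list held no gene on the lower side. Of its 20 measured genes 10 had a log2 ratio of at least 0.32 and 0 of -0.32 or less, with a median of 0.37, where 4.32% of all measured genes reached 0.32 and 8.19% reached -0.32. Of the 10, 7 code for GTPases of the interferon gamma response, among them Ifi47 (log2 ratio 1.56), Igtp (log2 ratio 1.49), Gbp7 (log2 ratio 0.82) and Irgm1 (log2 ratio 0.61), with Irf1, an early interferon-induced factor, at 1.55 in GLPG0187 cells and 1.14 in vehicle cells (log2 ratio 0.45). Isg15 and Ifit1, genes typical of interferon alpha and beta, split by sex. Isg15 averaged 2.33 in GLPG0187 cells and 2.23 in vehicle cells (log2 ratio 0.08; Xist-only 1.02, Y-only -0.28), and Ifit1 1.15 and 1.05 (log2 ratio 0.15; Xist-only 1.45, Y-only -0.32). Ifi27l2a, another of that kind, did not (log2 ratio 0.23; Xist-only 0.67, Y-only 0.10). Xist-only cells gave the list a median of 0.92 and Y-only cells of 0.13. With the filter on low values applied within Xist-only cells, their median was 0.75. The difference between the sexes was not tested.

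Antigen presentation genes showed the same pattern for class I, while the means of class II genes did not. Of 12 measured genes 7 reached 0.32 and 0 reached -0.32, with a median of 0.43 (Xist-only 0.87, Y-only 0.44). Beta-2 microglobulin (B2m), the light chain of class I, averaged 26.6 in GLPG0187 cells and 19.0 in vehicle cells (log2 ratio 0.49). The immunoproteasome subunits Psmb9 (GLPG0187 0.569, vehicle 0.273; log2 ratio 1.07) and Psmb8 (GLPG0187 1.68, vehicle 1.31; log2 ratio 0.37) and the peptide transporter Tap1 (GLPG0187 0.356, vehicle 0.246; log2 ratio 0.54) lay on the same side. The class II genes H2-Ab1 (log2 ratio 0.06), H2-Eb1 (log2 ratio -0.03) and Cd74 (log2 ratio -0.09) had level means over all cells and ran in opposite directions by sex, as did the non-classical H2-T23 (log2 ratio 0.04; Xist-only 0.75, Y-only -0.21). Class II genes were nonetheless above 0 in a larger share of GLPG0187 cells. For Cd74 the shares were 44.96% of GLPG0187 cells and 32.86% of vehicle cells, for H2-Aa 43.65% and 34.84%, and for H2-Eb1 44.01% and 37.68%.

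The other cell sets gave medians on the same side. The interferon median was 0.89 in Pi16 and Clec3b cells, 1.26 in Gdf10 and Hsd11b1 cells, 1.09 in Chad and Col2a1 cells and 0.40 in Myh11-high cells, and the antigen presentation median 0.71, 1.20, 1.10 and 0.46. The class II gene H2-Ab1 had a log2 ratio of -0.56 in Pi16 and Clec3b cells and 1.97 in Gdf10 and Hsd11b1 cells. It was 2.32 in Chad and Col2a1 cells and 1.12 in Myh11-high cells. In Pi16 and Clec3b cells the share of cells with H2-Ab1 above 0 went the other way, at 18.8% with GLPG0187 and 6.96% with vehicle. The differences between sets were not tested. Of the macrophage list 3 genes were measured in the set, with log2 ratios of 1.14 for Lyz2, 0.77 for C1qb and -0.09 for Cd74, where C1qb is capped by the rule. In cells with a C1q sum of 0 Lyz2 averaged 0.197 in GLPG0187 cells and 0.178 in vehicle cells, and in cells with a C1q sum of 1 to 4 it averaged 1.29 in GLPG0187 cells (148 cells) and 0.173 in vehicle cells (81 cells), and the part of macrophage RNA in these ratios was not tested. In the cells with a C1q sum of 0 the interferon median was 0.36 and the antigen presentation median 0.40. Adventitial fibroblast markers also lay higher, with 4 of 7 measured genes at 0.32 or more, 0 at -0.32 or less and a median of 0.34. The median of this list was 0.36 in Pi16 and Clec3b cells and 0.32 in Gdf10 and Hsd11b1 cells. It was 0.32 in Chad and Col2a1 cells and 0.05 in Myh11-high cells. The list of 10, which shares genes with the sum that the rule sets against its own genes, summed to 7.32 in GLPG0187 cells and 5.96 in vehicle cells, against 75.8 and 56.7 in Pi16 and Clec3b cells, none was at 0, and its part in the ratios above was not tested.

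Promoter sequences of interferon and antigen presentation genes are shown because the interferon list lay on the higher side, and a pair of DNA motifs is known to serve interferon signalling. GAAANNGAAA stands for the element bound by interferon regulatory factors, and TTCNNNGAA, its own reverse complement, for the gamma-activated site of interferon gamma signalling. The 250 bases before the RefSeq start on GRCm38.p6 were searched on both strands for 6 of 8 genes looked for. Over all 32851 RefSeq promoters of that length GAAANNGAAA was found in 978 (2.98%) and TTCNNNGAA in 2306 (7.02%). Capitals mark the motif, GAAANNGAAA in Gbp2 (chr3:142620413-142620662, plus strand, read on the reverse strand, 59 to 50 bases before the start) and B2m (chr2:122147437-122147686, plus strand, 139 to 130 bases before the start), and TTCNNNGAA in the first start of Irf1 (chr11:53769764-53770013, plus strand, 90 to 82 bases before it).
Gbp2: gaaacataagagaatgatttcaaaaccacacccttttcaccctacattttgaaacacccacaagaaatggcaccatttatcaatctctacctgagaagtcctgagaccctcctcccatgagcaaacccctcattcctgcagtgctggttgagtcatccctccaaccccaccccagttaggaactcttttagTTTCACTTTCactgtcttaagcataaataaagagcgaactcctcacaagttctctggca
B2m: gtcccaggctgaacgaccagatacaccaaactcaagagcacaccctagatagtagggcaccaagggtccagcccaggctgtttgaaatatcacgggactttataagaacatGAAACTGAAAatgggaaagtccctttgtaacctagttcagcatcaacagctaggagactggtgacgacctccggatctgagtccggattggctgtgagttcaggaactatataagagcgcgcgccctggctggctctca
Irf1: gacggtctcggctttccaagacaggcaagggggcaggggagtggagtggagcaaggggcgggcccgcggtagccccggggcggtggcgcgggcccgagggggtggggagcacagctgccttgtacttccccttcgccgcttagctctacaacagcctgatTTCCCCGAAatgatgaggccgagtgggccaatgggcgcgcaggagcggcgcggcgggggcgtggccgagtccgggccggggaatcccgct
Psmb8 also held 1 TTCNNNGAA, 97 to 89 bases before its start. Neither motif lay in the window of H2-K1 or H2-D1, or before the second start of Irf1. A match is a string of letters in this window and no evidence of binding. The search took exact strings only, so a window without a match may still hold a variant of either element.

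Immediate early genes, which respond within minutes to growth factors and to tissue handling, also lay on the higher side. Of 19 measured genes 9 reached a log2 ratio of 0.32 and 0 reached -0.32, with a median of 0.28 (Xist-only 0.27, Y-only 0.37). Fosb, a subunit of the AP-1 factor, averaged 7.08 in GLPG0187 cells and 3.76 in vehicle cells (log2 ratio 0.92), and Klf4, a zinc finger factor, 9.92 and 5.76 (log2 ratio 0.79). Outside the list, the orphan nuclear receptor Nr4a3 averaged 2.35 in GLPG0187 cells and 1.41 in vehicle cells (log2 ratio 0.75). Fos itself averaged 24.8 in GLPG0187 cells and 20.5 in vehicle cells (log2 ratio 0.28) and Egr1 13.4 and 12.3 (log2 ratio 0.13). The list's median was 0.40 in Pi16 and Clec3b cells, 0.44 in Gdf10 and Hsd11b1 cells, -0.02 in Chad and Col2a1 cells and 0.08 in Myh11-high cells. Tissue was digested with enzymes before the cells were captured, and the part of handling in these values was not tested.

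Chemokine and inflammation genes also lay mostly higher, and so did a pair of EGF receptor ligands. Hbegf, a ligand of that receptor, averaged 2.73 in GLPG0187 cells and 1.68 in vehicle cells (log2 ratio 0.71), and a second ligand, amphiregulin (Areg), 0.870 and 0.322 (log2 ratio 1.44, and 0.74 after capping), present in 11.2% and 7.37% of cells. Complement C3 averaged 2.16 in GLPG0187 cells and 1.32 in vehicle cells (log2 ratio 0.72) and the guanine deaminase gene Gda 1.23 and 0.751 (log2 ratio 0.73). Of 20 measured chemokine and inflammation genes 11 reached 0.32 and 2 reached -0.32, with a median of 0.37. Some of these ratios rested on few cells: the acute phase gene Saa3 averaged 0.705 in GLPG0187 cells and 0.0297 in vehicle cells, and 1 GLPG0187 cell held 43.3% of its summed value. The lymphoid chemokine Ccl19 lay the other way, at 0.907 in GLPG0187 cells and 1.45 in vehicle cells (log2 ratio -0.66).

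A single cell decided the haemoglobin genes. Hba-a1 averaged 1.07 in GLPG0187 cells and 0.00425 in vehicle cells, and 1 GLPG0187 cell held 99.7% of its summed value. Hbb-bs averaged 3.06 in GLPG0187 cells and 0.00850 in vehicle cells, and here too 1 cell held nearly all of the sum. After capping at the 99th percentile the log2 ratio of Hba-a1 was 0.08 and that of Hbb-bs -1.47.

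**Figure D4:**
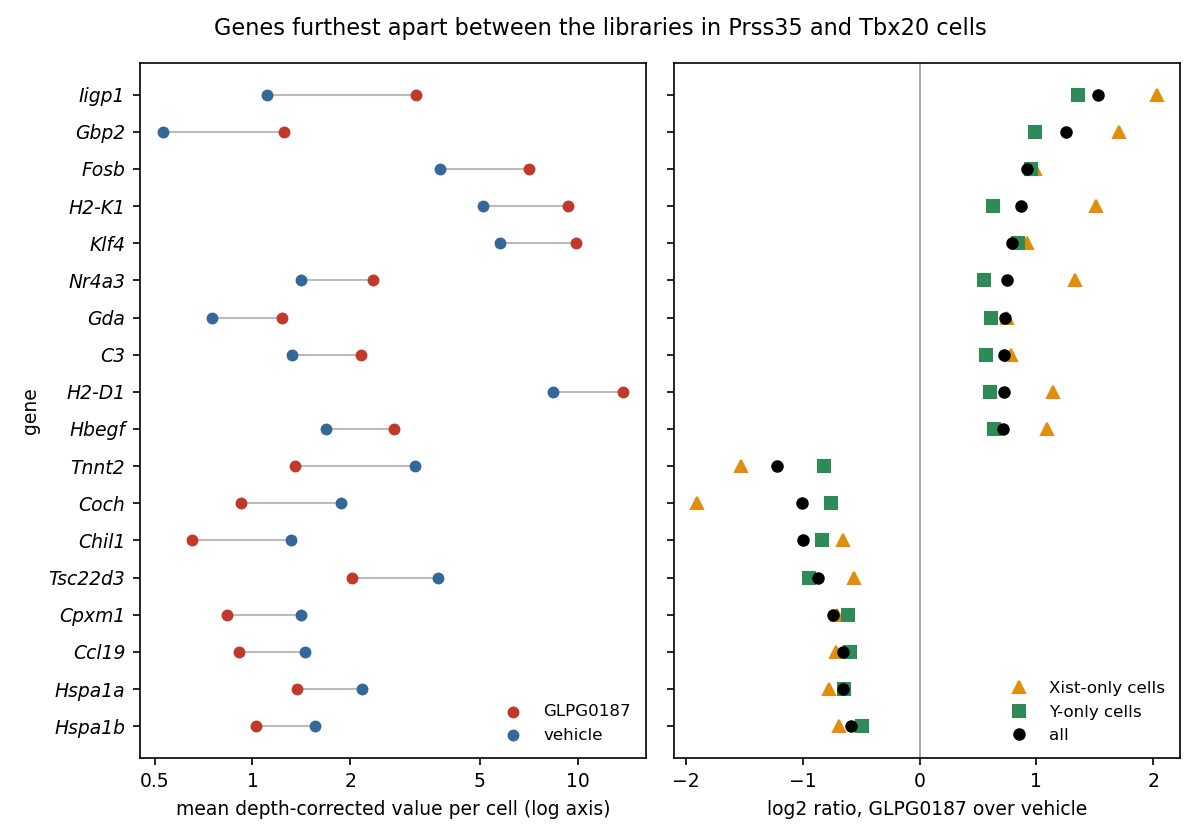
Left, mean depth-corrected value per cell (log axis) of the 12 higher genes with the largest ratio and the 8 lower genes that were 1.5-fold apart and apart the same way in both sexes (Hba-a1 and 1 gene not reported here are left out), red for GLPG0187 cells and blue for vehicle cells. Right, log2 ratio of GLPG0187 over vehicle in all cells of the set and by sex, where Iigp1 reaches 1.53, 2.03 and 1.36.

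Among genes lower in GLPG0187 cells, the glucocorticoid target Tsc22d3 (GILZ) lay lower in both sexes. It averaged 2.02 in GLPG0187 cells and 3.73 in vehicle cells (log2 ratio -0.87; Xist-only -0.56, Y-only -0.95) and was above 0 in 66.0% and 79.0%. Tsc22d3 also lay lower in each of the 4 compared sets, with log2 ratios from -0.41 in Chad and Col2a1 cells to -1.02 in Gdf10 and Hsd11b1 cells. The inducible heat shock genes Hspa1a (GLPG0187 1.37, vehicle 2.18; log2 ratio -0.66) and Hspa1b (GLPG0187 1.02, vehicle 1.56; log2 ratio -0.59) were the 2 of 12 measured heat shock genes that reached -0.32, and the list's median was -0.06. Both genes also lay lower in each of the 4 compared sets, Hspa1a at log2 ratios from -0.41 to -0.68 and Hspa1b from -0.29 to -0.73. Cpxm1, a carboxypeptidase-like matrix protein, averaged 0.838 in GLPG0187 cells and 1.41 in vehicle cells (log2 ratio -0.74). Coch averaged 0.920 in GLPG0187 cells and 1.88 in vehicle cells (log2 ratio -1.01, and -0.84 after capping). Chil1 and Tnnt2 leaned on a few cells: the log2 ratio of Chil1, a chitinase-like protein, was -1.0 and, after capping, -0.24, and that of Tnnt2, cardiac troponin T, -1.22 and, after capping, -0.84.

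The other cardiac genes rested on single vehicle cells. All 6 measured cardiomyocyte markers reached -0.32, with a median of -4.07, a single vehicle cell held 93.0% of the summed value of Myh6, and a single one 93.1% of that of Actc1. The list's median was -0.97 after capping, and Myl7 was at 0 in both libraries.

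Clock genes and glucocorticoid targets lay on both sides. Of 21 measured genes 5 reached 0.32 and 7 reached -0.32, with a median of -0.21. The repressor Nr1d1 averaged 0.897 in GLPG0187 cells and 0.545 in vehicle cells (log2 ratio 0.73), with Dbp (log2 ratio 0.76) and Nr1d2 (log2 ratio 0.65) on the same side, while Per1 (log2 ratio -0.47) and Cry1 (log2 ratio -0.59) lay lower. The hour of tissue collection is not stated in the labels, and its part in these values was not tested.

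**Figure D5:**
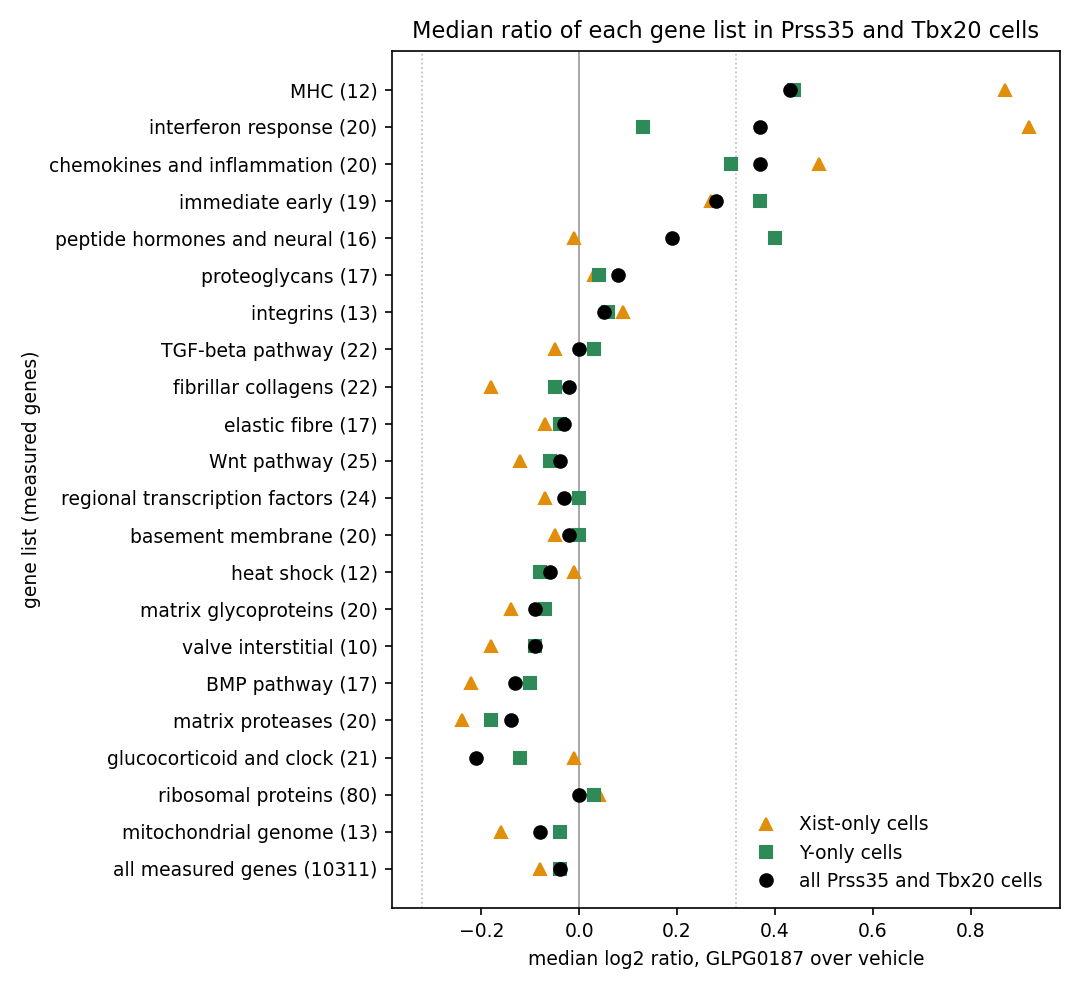
Median log2 ratio of GLPG0187 over vehicle for the gene lists drawn, in the Prss35 and Tbx20 cells, over all cells of the set, Xist-only cells and Y-only cells. Antigen presentation (0.43), interferon response (0.37) and chemokines (0.37) lie furthest above the median of all measured genes (-0.04) among the lists drawn, and fibrillar collagens (-0.02) and integrins (0.05) lie near it.

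Integrins, the family that GLPG0187 is directed at, differed little in these cells. None of the 13 measured subunits reached 0.32 in either direction, and their median was 0.05. Itgav, the alpha-v chain, averaged 1.92 in GLPG0187 cells and 1.87 in vehicle cells (log2 ratio 0.05). Its partners Itgb1 (GLPG0187 8.30, vehicle 8.44), Itgb5 (GLPG0187 1.57, vehicle 1.60) and Itgb8 (GLPG0187 0.772, vehicle 0.653) had log2 ratios between -0.01 and 0.25, and Itgb3 was too low to be measured. RNA levels say nothing of whether the protein was blocked.

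The TGF-beta pathway, which alpha-v integrins feed by freeing the latent ligand, had a median of 0.00 over 22 measured genes, with 2 at 0.32 or more and 1 at -0.32 or less. The ligands Tgfb1 (GLPG0187 1.03, vehicle 1.14; log2 ratio -0.13), Tgfb2 (GLPG0187 1.16, vehicle 1.36; log2 ratio -0.21) and Tgfb3 (GLPG0187 1.09, vehicle 1.10; log2 ratio 0.01) and the receptor Tgfbr2 (GLPG0187 2.47, vehicle 2.52; log2 ratio -0.02) lay within 0.32 of 0. The response genes Ctgf (GLPG0187 16.0, vehicle 15.9; log2 ratio 0.02) and Pmepa1 (GLPG0187 15.5, vehicle 15.1; log2 ratio 0.04) did so too. Among the higher genes was the activin subunit Inhba, at 2.10 in GLPG0187 cells and 1.36 in vehicle cells (log2 ratio 0.64). The lower one was Smad2, at 0.487 in GLPG0187 cells and 0.626 in vehicle cells (log2 ratio -0.35).

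Matrix gene lists had medians between -0.14 and 0.08. None of 22 measured fibrillar collagen genes and their enzymes reached 0.32 in either direction (median -0.02). Col1a1 averaged 15 in GLPG0187 cells and 15.4 in vehicle cells, and Col3a1 13.5 and 12.9, and the log2 ratio of Col3a1 (0.08) split by sex (Xist-only -0.60, Y-only 0.31). Of 17 elastic fibre genes 0 reached 0.32 and 2 reached -0.32, Mfap4 (GLPG0187 2.67, vehicle 4.14; log2 ratio -0.62) and the low Fbn2 (GLPG0187 0.0736, vehicle 0.154; log2 ratio -1.05). Fbn1, the mutated gene, averaged 3.41 in GLPG0187 cells and 3.65 in vehicle cells (log2 ratio -0.09), and elastin (Eln) 1.10 and 0.928 (log2 ratio 0.26). Of 17 proteoglycan genes 4 reached 0.32 and 2 reached -0.32, of 20 basement membrane genes 1 and 2, of 20 matrix glycoprotein genes 1 and 4, and of 20 protease and inhibitor genes 1 and 4, among them Htra1 (GLPG0187 2.87, vehicle 3.84; log2 ratio -0.41). Of all measured genes 4.32% reached 0.32 and 8.19% reached -0.32. Above those shares lay the proteoglycan genes on the higher side (23.5%). The glycoprotein and the protease genes did so on the lower side (20% each).

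Developmental regulators and BMP signalling, which pattern the valves, showed small shifts. Of 24 measured transcription factors 1 reached 0.32 and 3 reached -0.32 (median -0.03), with Gata4 at 1.12 in GLPG0187 cells and 1.29 in vehicle cells (log2 ratio -0.19), Hand2 at 2.47 and 2.70 (log2 ratio -0.12) and Gata6 at 2.71 and 2.77 (log2 ratio -0.02). Of 17 BMP genes 3 reached 0.32 and 4 reached -0.32 (median -0.13). The ligand Bmp2 averaged 1.39 in GLPG0187 cells and 0.945 in vehicle cells (log2 ratio 0.57), while Bmp6 (GLPG0187 0.319, vehicle 0.467; log2 ratio -0.54), the modulator Bmper (GLPG0187 0.890, vehicle 1.20; log2 ratio -0.41) and the inhibitor Smad6 (GLPG0187 0.771, vehicle 1.02; log2 ratio -0.40) lay lower. The BMP targets Id1 (GLPG0187 2.08, vehicle 2.60; log2 ratio -0.31) and Id3 (GLPG0187 14.7, vehicle 18.4; log2 ratio -0.31) missed the threshold. Of 25 Wnt genes 1 reached 0.32 and 3 reached -0.32, with Wnt16 at 0.893 in GLPG0187 cells and 1.26 in vehicle cells (log2 ratio -0.48). Wif1 and Rspo3 had log2 ratios of 0.18 and 0.07.

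Some of the genes at least 2-fold over the compared sets were lower with GLPG0187. Notch1 had a log2 ratio of -0.43 (Xist-only -0.28, Y-only -0.41), Ptprb of -0.45 (Xist-only -0.38, Y-only -0.59), and Aldh1a3 of -0.40 (Xist-only -0.63, Y-only -0.34). Vcan, Dbi, Trf and Tesc did not follow, with log2 ratios of -0.03, 0.03, -0.02 and 0.12. Outside that group, Scx had a log2 ratio of -0.42 (Xist-only -0.44, Y-only -0.45) and Igf1, the insulin-like growth factor, of -0.35 (Xist-only -0.59, Y-only -0.11). Smooth muscle markers lay slightly higher, with 3 of 8 measured genes at 0.32 or more and 0 at -0.32 (median 0.17), among them Acta2, smooth muscle actin, at 7.65 in GLPG0187 cells and 5.74 in vehicle cells (log2 ratio 0.43), and Myh11, which the rule caps, at 0.656 and 0.384 (log2 ratio 0.78). Myh11-high cells were the more frequent in the GLPG0187 library, as given above, and the part of their free RNA in these 2 genes was not tested. Ribosomal protein genes had a median of 0.00 over 80 genes and mitochondrial genes of -0.08 over 13.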

How the data were processed

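Single-cell RNA of 2 libraries, 1 per group, was analysed. Reads had been processed with Cell Ranger and Seurat on mm10, per the submitters' processing notes. The authors deposited whole-number values for 18920 genes in each cell, treated here as a score: totals per cell were nearly even (coefficient of variation 5.69% for GLPG0187, range 12135 to 16719, and 5.81% for vehicle, range 12078 to 16187), so they are depth-corrected and not UMI counts, the unit the design had assumed. No count model was run, and the original depth per cell is unknown. The deposited cells were used with no further filter. The libraries shared 5 barcodes.

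Members were found by the rule in each library. The members, gene lists and gate limits were chosen with earlier results of these data known, as were all genes and pairs described as chosen after their values were seen. Values were summed over the members, 1 was added to each sum, and sums were divided by the members' total to give log2 ratios. A gene was measured when its sum over both libraries was at least 100. A list member was counted as higher or lower past a log2 ratio of 0.32, and single genes past 1.5-fold. Genes were named when they were label or rule genes, when they had a mean of at least 1 in 1 library, were 1.5-fold apart and at least 1.25-fold apart the same way in both sexes (up to 12 each way), when they were among the 20 with the widest gap over the compared sets, or when they were among the 5 highest or 5 most different of a list. Xist and Y-linked genes served only to split the cells.

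Alternatives were rule sums of 3 and 6, a Myh11 limit of 5, Scrublet doublets removed (scanpy 1.11.5), median-of-ratios scaling, no scaling, 10 added to each sum, no filter, each sex alone, and, added after seeing the data, values capped at the 99th percentile and members with no C1q or endothelial value. Shares have exact 95% Clopper-Pearson intervals, and the interval of a difference was built from both. The log2 ratio was tested on simulated Poisson sums with known fold changes. The deposited values are not counts, and such sums do not mimic genes whose sum rests on a single cell. Python 3.11.15, numpy 2.4.6, scipy 1.17.1, pandas 2.3.3 and matplotlib 3.10.9 were used. Gene positions are from GENCODE and promoters from RefSeq, both on GRCm38. Some genes that met the naming rule are not reported here.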

Additional observations from a re-analysis of the deposited data

Results flagged for a closer look

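Some genes of the Prss35 and Tbx20 cells had log2 ratios of GLPG0187 over vehicle that ran in opposite directions in the sexes, and the difference between the sexes was not tested. The MHC class II genes did so together, lower in Xist-only and higher in Y-only GLPG0187 cells: H2-Ab1 (Xist-only -0.38, Y-only 0.43), H2-Eb1 (Xist-only -0.55, Y-only 0.43) and Cd74 (Xist-only -0.80, Y-only 0.49). The metallothioneins, metal-binding proteins induced by glucocorticoids and zinc, ran the other way, Mt1 (Xist-only 0.47, Y-only -0.93) like Mt2 (Xist-only 0.86, Y-only -0.71). Lcn2, a siderophore-binding protein, was split in the sexes (Xist-only -0.98, Y-only 0.62), as was Id4, an inhibitor of helix-loop-helix factors (Xist-only -0.73, Y-only 0.55). Spp1, osteopontin, was higher in one sex and lower in the other (Xist-only 1.40, Y-only -1.27), and 1 vehicle cell held 46.5% of its summed value. The values of Hbb-bs (Xist-only -0.48, Y-only 8.18) came with a single GLPG0187 cell holding nearly all of its sum.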

How the results depend on the processing

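No reported ratio past 1.5-fold changed direction in an alternative where its gene stayed above the filter on low values. Genes under the filter there were left out, among them Hbb-bs after capping (log2 ratio -1.47) and in Xist-only cells (-0.48), and Lcn2 in Xist-only cells (-0.98), each opposite to its value over all cells. The share of cells that met the rule among Xist-only cells was 15.8% for GLPG0187 and 26.9% for vehicle, and among Y-only cells 21.3% for GLPG0187. Members with no C1q value made up 15.8% of all cells for GLPG0187 and 21.1% for vehicle. Members with neither Pecam1 nor Cdh5 made up 17.5% for GLPG0187 and 22.3% for vehicle. The base stayed all cells of the library, so these shares could only be lower than the reported ones. Genes at least 1.5-fold lower in GLPG0187 cells numbered 254 in Xist-only cells, and 97 after values were capped. With no filter on low values 1883 genes were at least 1.5-fold higher and 2240 lower, since many more low genes then count. Of single-gene values 866 moved by less than 0.2 on the log2 scale and 52 by more, and of list medians 436 and 14. Median-of-ratios scaling put the median log2 ratio of all genes at 0.00, and no scaling at -0.06. No paired analysis was possible because each group is 1 library. Depth-corrected values keep no counting error, and pooled animals leave none between animals.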
